A study of Mus musculus with 6 samples.

Results

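Hemoglobin RNA was examined in C0321 tumors through 8 genes of red cells: the adult α-globin genes Hba-a1 and Hba-a2, the adult β-globin entries Hbb-b1, Hbb-b2, Hbb-bs and Hbb-bt, the heme synthesis gene Alas2 and the band 3 gene Slc4a1. The genes were chosen by symbol, with their levels and their differences between control and SS tumors already known, so their values are given here as a description and without a test. All 8 were found among the 13730 genes of the deposited table. C0321 is a mesenchymal clone of a mouse triple-negative breast cancer (TNBC), derived from a model with conditional knockout of Lunatic Fringe (Lfng) in FVB mice, and its cells were injected with Matrigel in PBS into the mammary fat pad of syngeneic female FVB mice aged 6 to 10 weeks. Once a tumor could be felt, mice in the SS group received sulindac sulfide (SS) by mouth at 60 mg/kg each day for 14 days, and the other group served as controls. The sample labels call the drug Sulindac Sulfate, and the control is saline in the series text and vehicle in the paper. There were 3 tumors per group. Their labels give a number and not the mouse of origin, so the p-values below measure only the spread between these samples, which may be technical.

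Hemoglobin is built from a pair of α chains and a pair of β chains, each holding a heme. Red cell precursors make these chains in the bone marrow and spleen under the transcription factors GATA1 and KLF1, and Alas2 catalyzes the first step of their heme synthesis. Slc4a1, or band 3, exchanges chloride for bicarbonate and anchors the skeleton of the red cell membrane. Young red cells (reticulocytes) have lost the nucleus but still carry globin mRNA, so that RNA from blood in a tissue holds globin transcripts although the tissue itself does not make them.

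The 8 symbols do not stand for 8 separate measurements. Both α genes lie on chromosome 11, where the table places Hba-a1 from 32283672 to 32284487 and Hba-a2 from 32283675 to 32284494 on the plus strand (mm10, the stop being 1 base past the RefSeq end), which is the same copy. A second placement of each, from 32296489 to 32297304 and from 32296492 to 32297311, held at most 0.0818% of the α counts of any tumor, although RefSeq puts Hba-a2 at this second copy. Their coding sequences of 426 bases differ at 1 base, C381T counted from the first base of the start codon in Hba-a1, and 86.9% of the 75-base windows of the Hba-a1 coding sequence occur unchanged in Hba-a2. On chromosome 7, Hbb-b1 (103826532 to 103827930) and Hbb-bs (103826523 to 103827929) are annotations of the same locus on the minus strand. Their counts stood in a ratio of 1.85 to 1.86 in all 6 tumors. Hbb-b2 and Hbb-bt share 1 further locus (103812524 to 103813924), with identical counts in every tumor, and were counted once. Hbb-bs and Hbb-bt are the adult β genes of the reference strain C57BL/6, and Hbb-b1 and Hbb-b2 are the names of the pair in another haplotype. The coding sequences of Hbb-bs and Hbb-bt, 441 bases each, also differ at 1 base, C417T, and 93.2% of the 75-base windows of the Hbb-bs coding sequence occur unchanged in Hbb-bt (64.3% over the whole transcript). Values are therefore given mainly for 3 globin loci, α, Hbb-b1/Hbb-bs and Hbb-b2/Hbb-bt, and the split between genes of a locus is uncertain, as is the split of reads between both β loci.

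The stretches of coding sequence around these differences, from GENCODE transcripts on GRCm38, show how little separates the copies. They run from coding base 361 to 400 in the α genes and from 397 to 436 in the β genes, and the capital marks the base that differs.
Hba-a1: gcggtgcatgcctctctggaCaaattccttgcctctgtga
Hba-a2: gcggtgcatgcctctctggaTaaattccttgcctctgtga
Hbb-bs: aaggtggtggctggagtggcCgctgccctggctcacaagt
Hbb-bt: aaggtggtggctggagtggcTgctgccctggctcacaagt

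RefSeq promoter windows (GRCm38.p6) were at hand for 5 of the 8 members, and the 250 bases before the start are shown as a description of the genes. Capitals mark matches on either strand to GATAAG, the core bound by GATA factors, to CACCC, the core bound by KLF1 and related factors, to the CCAAT box and to TATAA. The windows are chr11:32283422-32283671 (plus strand) for Hba-a1, chr7:103827929-103828178 (minus) for Hbb-bs, chr7:103813924-103814173 (minus) for Hbb-bt and chrX:150547167-150547416 (plus) for Alas2.
Hba-a1: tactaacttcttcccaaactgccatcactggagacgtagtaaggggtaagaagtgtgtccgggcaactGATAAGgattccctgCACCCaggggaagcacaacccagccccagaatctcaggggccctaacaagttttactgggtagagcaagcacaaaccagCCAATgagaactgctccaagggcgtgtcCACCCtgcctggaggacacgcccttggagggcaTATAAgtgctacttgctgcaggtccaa
Hbb-bs: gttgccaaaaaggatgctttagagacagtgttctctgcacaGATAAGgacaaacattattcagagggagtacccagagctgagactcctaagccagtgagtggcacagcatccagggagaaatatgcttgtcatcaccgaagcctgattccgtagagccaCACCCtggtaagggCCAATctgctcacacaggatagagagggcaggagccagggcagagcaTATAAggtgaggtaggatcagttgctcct
Hbb-bt: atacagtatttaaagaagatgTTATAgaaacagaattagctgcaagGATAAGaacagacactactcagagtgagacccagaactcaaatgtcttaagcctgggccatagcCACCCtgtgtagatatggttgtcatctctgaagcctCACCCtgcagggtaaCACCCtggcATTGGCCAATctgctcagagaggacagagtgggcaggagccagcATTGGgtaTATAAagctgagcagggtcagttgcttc
Alas2: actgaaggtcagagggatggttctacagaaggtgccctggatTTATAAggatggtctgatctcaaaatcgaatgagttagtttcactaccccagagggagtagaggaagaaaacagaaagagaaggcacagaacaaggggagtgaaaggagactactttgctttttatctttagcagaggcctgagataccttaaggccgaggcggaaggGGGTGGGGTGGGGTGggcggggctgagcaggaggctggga

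On the strand shown, the α and β promoters shared GATAAG as the match farthest from the start and TATAA as the nearest, with CACCC and CCAAT between them. Hbb-bt had further matches to CCAAT and TATAA on the other strand. GATAAG began 182 bases before the start in Hba-a1, 209 in Hbb-bs and 204 in Hbb-bt. TATAA began 27, 29 and 28 bases before the start in the same genes. The window of Hba-a2 matched that of Hba-a1 at 100% of 247 bases once shifted by 3, whereas Hbb-bs and Hbb-bt matched at 51.0% of 249 bases. Alas2 had 3 matches to CACCC within 40 bases of the start, lying end to end on the other strand. It had TATAA on both strands with its farthest base 208 bases away, and no match to GATAAG or CCAAT in this window. The window does hold AGATAA on the other strand, a related form that was not searched for. Over all 32851 windows of this length, 6.55% held GATAAG, 52.0% CACCC, 33.8% CCAAT and 22.8% TATAA, and 0.289% held all 4. These matches are letters in a window and were not tested as binding sites.

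Total counts ran from 8468914 to 24441522 per tumor, and levels are given as CPM, counts brought to a common library total after TMM scaling. A count of 0 allows up to 3 counts, which is 0.123 CPM in the deepest and 0.354 CPM in the shallowest tumor before TMM scaling. Of the markers of tumor identity, the mesenchymal Vim lay between 5868 and 8610 CPM and the epithelial Epcam at no more than 2.98 CPM, while the epithelial keratin genes Krt8 and Krt18 were at 417 to 544 and 59.4 to 98.0 CPM. The receptor genes Esr1 and Erbb2 were at no more than 6.4 and 22.3 CPM. Lfng, the target of that knockout, had from 4.64 to 6.4 CPM, in tumors that also hold host cells. Markers of skeletal muscle ran from 331 to 22722 CPM summed over 8 genes. With edgeR's quasi-likelihood test and Benjamini-Hochberg adjustment, 0 of 10902 genes (0%) had an adjusted p under 0.05, while 693 had an unadjusted p under 0.05. DESeq2's Wald test gave 35 genes after adjustment, and limma on quantile-normalized values gave 0.

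Globin RNA was lower on average in SS tumors at all 3 loci. Summed over them, it amounted to 0.567%, 0.265% and 0.300% of all counts in control tumors 1, 2 and 3, and to 0.131%, 0.280% and 0.187% in SS tumors 1, 2 and 3. In CPM this was 5512, 2668 and 3002 in the control tumors against 1303, 2822 and 1902 in the SS tumors. Control tumor 1 was well above all others and SS tumor 1 below all others, and SS tumor 2 lay above control tumor 2, so that the groups overlapped. Controls averaged 3727 ± 1555 CPM (SD, n = 3), SS tumors averaged 2009 ± 765 CPM (SD, n = 3), and the ratio of SS to control was 0.539. The difference in mean log2 level was -0.89, and it was -0.57 without control tumor 1, -0.61 without SS tumor 1 and -1.17 without SS tumor 2. In bulk RNA, fewer red cells in a tumor and less globin RNA per cell cannot be told apart.

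**Figure D1:**
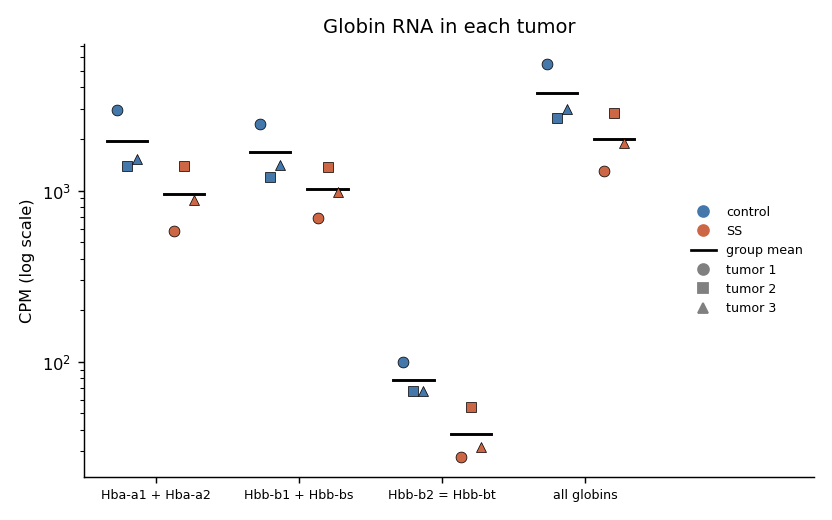
CPM on a log scale for the α locus, the Hbb-b1/Hbb-bs locus, the Hbb-b2/Hbb-bt locus and their sum, with 1 point per tumor (control blue, SS orange, marker shape by tumor number) and a bar at each group mean. In the sum, SS tumor 2 at 2822 CPM lies between control tumors 2 and 3, and the remaining SS tumors lie under every control.

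The α locus, which supplies the chains common to all adult hemoglobin, was at 2962, 1398 and 1519 CPM in control tumors 1, 2 and 3. It was at 581, 1397 and 886 CPM in SS tumors 1, 2 and 3. SS tumor 2 and control tumor 2 were nearly equal, and their order turned with RLE scaling (1401 against 1394 CPM), so the groups are best read as touching. The log2 fold change of the locus was -1.04 with a standard error of 0.38. Of its genes, Hba-a1 had 1254, 455 and 476 CPM in control tumors and 185, 471 and 340 CPM in SS tumors, which overlap. Hba-a2 had 1708, 943 and 1043 CPM in control and 396, 926 and 546 CPM in SS tumors, where every SS tumor was below every control by a narrow margin. Their log2 fold changes were -1.13 with a standard error of 0.46 and -0.98 with a standard error of 0.34. That of Hba-a1 rested on control tumor 1 and was -0.49 without it, while that of Hba-a2 was -0.67. Hba-a1 took from 31.3% to 42.3% of the α counts, with the highest share in control tumor 1.

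The major β locus, Hbb-b1/Hbb-bs, was at 2451, 1203 and 1415 CPM in control tumors and at 694, 1371 and 984 CPM in SS tumors. Here SS tumor 2 exceeded control tumor 2, and the groups overlapped. Its log2 fold change, -0.73 (standard error 0.32), was the smallest of the 3 loci, and either of its genes was at -0.37 without control tumor 1. Hbb-b1 averaged 1098 ± 433 CPM (SD, n = 3) in controls against 660 ± 221 CPM (SD, n = 3) under SS, and Hbb-bs 592 ± 235 against 356 ± 119 CPM (SD, n = 3 each). As both share the reads of this locus, these are the same change printed under each name.

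The minor β locus, Hbb-b2/Hbb-bt, was at 99.6, 67.4 and 67.5 CPM in control tumors and at 27.7, 54.4 and 31.7 CPM in SS tumors. All SS tumors were below all controls, under each of the 4 scalings for which the order was compared. At -1.05 (standard error 0.28), its log2 fold change had the smallest error among the loci, and it ran from -1.39 to -0.84 with each tumor left out in turn. Per kilobase of transcript, the level was 111 ± 26.4 CPM (SD, n = 3) in control tumors, against 2691 ± 1064 CPM for the major β locus and 3264 ± 1400 CPM for the α locus, so that α and major β transcripts were near each other within their spread and the minor β transcripts far below, as far as the counting parted the β loci.

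Alas2, the erythroid form of 5-aminolevulinate synthase, had few counts: controls 1, 2 and 3 held 25, 30 and 34, while SS tumors 1, 2 and 3 held 1, 5 and 7. In CPM this was 1.97, 1.47 and 1.39 against 0.0725, 0.595 and 0.591. Every SS tumor was below every control, and the means were 1.61 ± 0.315 CPM (SD, n = 3) for controls and 0.42 ± 0.301 CPM (SD, n = 3) under SS. At -1.96 (standard error 0.73) its log2 fold change was the lowest among the members, and it was -1.43 without SS tumor 1. Alas2 passed the filter on low counts through the control tumors alone. The exact 95% Poisson intervals, which cover counting error only, ran from 0.00184 to 0.404 CPM in SS tumor 1, from 0.193 to 1.39 CPM in SS tumor 2 and from 0.238 to 1.22 CPM in SS tumor 3. They began at 1.28, 0.994 and 0.965 CPM in control tumors 1, 2 and 3, so that SS tumor 1 lay clear of every control while the intervals of SS tumors 2 and 3 reached into those of controls. The table holds Alas2 as 2 isoforms on chromosome X from 150547417 to 150570623, whose counts stood at 3.09 to 1 in every tumor, so isoform use could not be compared.

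Slc4a1, on chromosome 11 from 102348820 to 102365282 on the minus strand, had 3, 37 and 11 counts in control tumors and 0, 4 and 6 counts in SS tumors. It did not pass the filter on low counts and was not fitted. In CPM the controls were at 0.237, 1.82 and 0.451 and the SS tumors at 0, 0.476 and 0.506, where 0 counts in SS tumor 1 allow up to 0.217 CPM (3 counts). The groups overlapped, and the order differed from that of the globins, since control tumor 1 had the most globin RNA and the fewest Slc4a1 counts among controls.

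**Figure D2:**
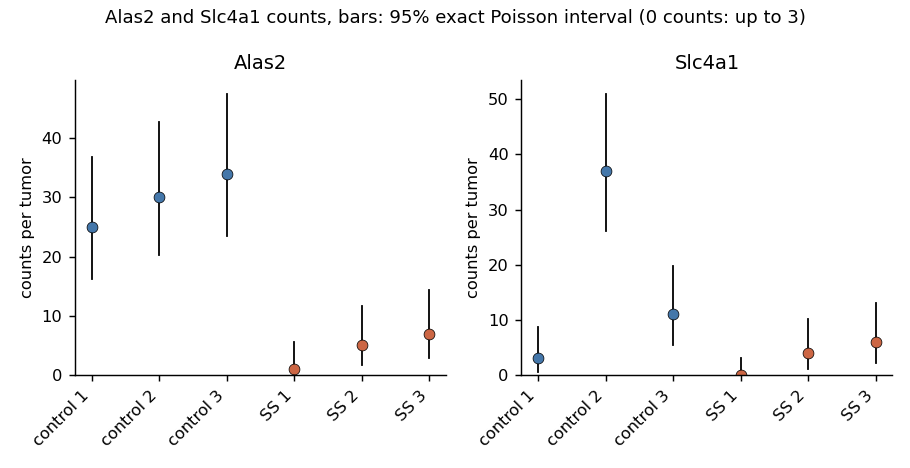
Counts of Alas2 (left) and Slc4a1 (right) in each tumor, with bars for the exact 95% Poisson interval (up to the floor of 3 counts for a count of 0). Alas2 has from 25 to 34 counts in controls and from 1 to 7 in SS tumors, while for Slc4a1 the 37 counts of control tumor 2 stand apart.

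Of the 8 members, 7 passed the filter, and with Hbb-b2 and Hbb-bt taken once 6 of 6 had a lower mean in SS tumors, where 50.2% of all tested genes did. Their median log2 fold change was -1.02, beside -0.0013 over all 10902 genes, and without control tumor 1 it was -0.58. The groups did not overlap for 3 of the 6 (Hba-a2, Hbb-bt and Alas2), as for 6.4% of all genes in this direction. These genes were picked with the difference known, share reads, and include Alas2, which passed the filter through the control tumors alone. No weight is therefore drawn from these counts or from the median. Over all genes, 3.16% were lower and 3.19% higher in edgeR's test at an unadjusted p under 0.05, and 6.51% had SS tumors above all controls.

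Ratios of counts inside a tumor do not depend on the scaling. Controls 1, 2 and 3 held 1.16, 1.10 and 1.02 α counts for each β count, and SS tumors 1, 2 and 3 held 0.805, 0.98 and 0.873. All SS tumors were therefore below all controls, by 1.10 ± 0.0685 (SD, n = 3) against 0.886 ± 0.0886 (SD, n = 3). Hbb-bt made up 3.90%, 5.30% and 4.55% of the β counts in control tumors and 3.84%, 3.82% and 3.13% in SS tumors, again without overlap but nearly touching, and subject to the uncertain split of reads between the β loci. For each 10000 globin counts there were 3.58, 5.52 and 4.64 Alas2 counts in control tumors and 0.556, 2.11 and 3.11 in SS tumors. The value of each SS tumor was thus below that of any control. SS tumors 2 and 3 rest on 5 and 7 Alas2 counts, with 95% Poisson intervals of 1.62 to 11.7 and 2.81 to 14.4 counts. At this depth their order against the controls is not settled. The same ratio for Slc4a1 was 0.43, 6.81 and 1.5 in controls and 0, 1.69 and 2.66 in SS tumors, with overlap.

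**Figure D3:**
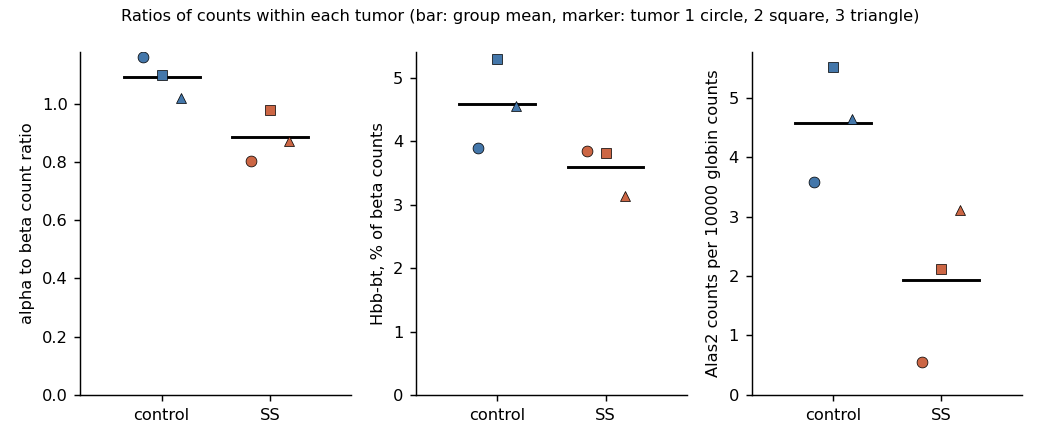
Ratio of α to β counts, share of Hbb-bt in β counts and Alas2 counts per 10000 globin counts, with 1 marker per tumor and a bar at each group mean. In all 3 panels the SS tumors lie below the controls, with the narrowest gap for the Hbb-bt share (3.84% against 3.90%). Counting error is not drawn, and the Alas2 values of SS tumors rest on 1 to 7 counts.

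Of 11 genes of heme synthesis listed besides Alas2, 9 were tested, 2 higher and 7 lower in mean, with 0 at an unadjusted p under 0.05 and a median log2 fold change of -0.17. Alas1, the form of the first enzyme that other tissues use, was at 40.2, 29.2 and 31.6 CPM in control and 41.0, 27.5 and 20.9 CPM in SS tumors (log2 fold change -0.17, standard error 0.255). Per kilobase of transcript, Alas1 was 11.5, 11.2 and 12.9 times as abundant as Alas2 in control tumors 1, 2 and 3 and 320.6, 26.2 and 20.1 times in SS tumors 1, 2 and 3, where the first SS value rests on 1 Alas2 count. Urod, which decarboxylates uroporphyrinogen, had every SS tumor below every control, at 18.3, 17.1 and 16.0 CPM against 15.2, 15.0 and 12.7 CPM. On the log2 fold change scale Urod was at -0.26 with a standard error of 0.16. Cpox, the next enzyme, was at -0.96 with a standard error of 0.61, Abcb10, a transporter of the inner mitochondrial membrane, at -0.72 with a standard error of 0.46, and Fech, which inserts iron into the ring, at -0.18 with a standard error of 0.26. The adjusted p of these 9 genes lay between 0.839 and 0.97 in edgeR's test.

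Several genes that define red cell precursors had no row. Gata1, Klf1, Tal1 and Epor were not in the table used here, nor were the α-globin chaperone gene Ahsp, Rhag, Kel, Hemgn, Trim10 and the embryonic globins Hba-x, Hbb-y and Hbb-bh1. Uros, an enzyme of heme synthesis in all tissues, was not in it either, so a missing row is not read as a low level. Gfi1b had 0.474, 0 and 0.205 CPM in controls and 0 in each SS tumor. Of the 12 listed erythroid regulators, 7 were tested, 3 higher and 4 lower in mean. Ldb1, a cofactor that binds LMO2 and GATA factors and is made in most tissues, was higher at 387, 440 and 388 CPM in control and 455, 494 and 496 CPM in SS tumors, and was the single gene of the list at an unadjusted p under 0.05 (edgeR's adjusted p = 0.771). Nfe2 was at 0.76 with a standard error of 0.57 on the log2 fold change scale, Lmo2 at -0.20 with a standard error of 0.18, and Zfpm1, which encodes the GATA1 partner FOG-1, at -0.03 with a standard error of 0.19.

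Of 17 further genes of the red cell membrane and its skeleton, 9 were in the table and 7 were tested, 3 higher and 4 lower, with 0 at an unadjusted p under 0.05. Epb42 had 0 counts in each control and no more than 0.844 CPM in an SS tumor. The median log2 fold change of the 7 was -0.25. The lower genes were Tmod1, which caps actin filaments, at -0.55 with a standard error of 0.80, the actin-bundling Dmtn at -0.55 with a standard error of 0.60, the adducin gene Add2 at -0.38 with a standard error of 0.52, and Epb41, or protein 4.1, at -0.25 with a standard error of 0.19. The higher ones were the water channel gene Aqp1, which endothelium also transcribes, at 0.71 with a standard error of 0.53, and Ank1 and Sptb. Ank1 and Sptb, at 0.51 and 0.47 on the log2 fold change scale with standard errors of 0.80 and 0.62, are also transcribed in skeletal muscle. In SS tumors 1, 2 and 3 Sptb was at 5.0, 20.7 and 22.9 CPM, where the muscle markers summed to 331, 22722 and 12213 CPM, and the part of muscle in these genes was not tested. Cygb, a globin of fibroblasts and the only other globin gene tested, was at 0.09 with a standard error of 0.17. Among late erythroid proteins 7 of 14 genes were tested, 2 higher and 5 lower in mean, with a median log2 fold change of -0.07. Tspan33, a tetraspanin of erythroid cells, was at 0.82 with a standard error of 0.49. Xpo7, a nuclear export receptor made in many tissues, was at 99.5, 97.0 and 101 CPM in control and 84.6, 78.6 and 83.2 CPM in SS tumors, without overlap (log2 fold change -0.27, standard error 0.09, edgeR's adjusted p = 0.771), and was the single gene at an unadjusted p under 0.05.

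**Figure D4:**
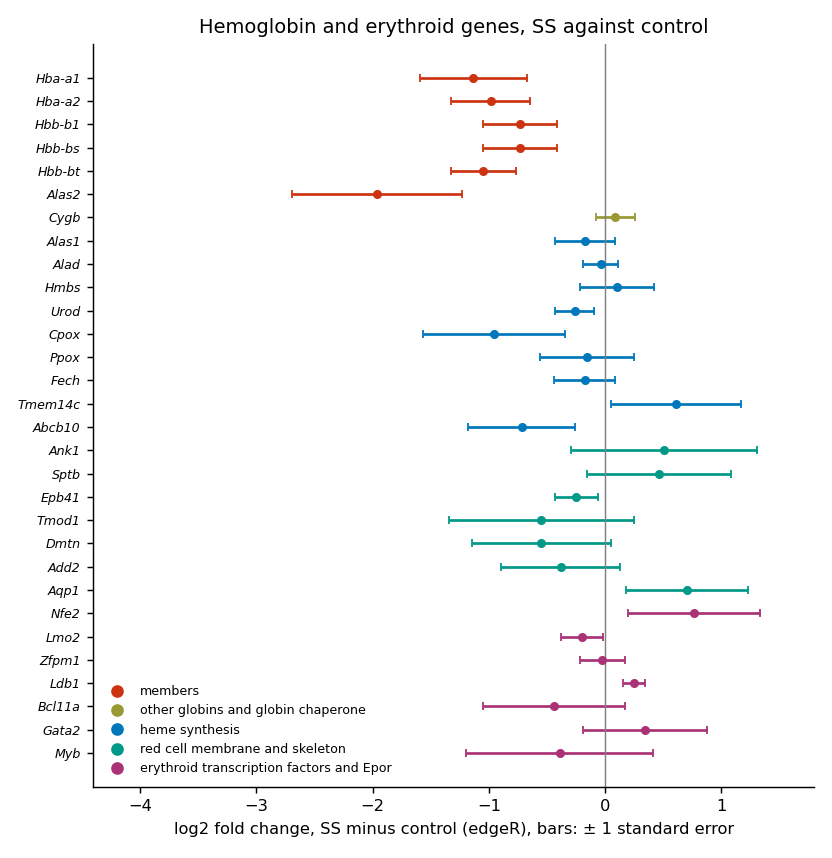
Log2 fold change of SS over control from edgeR for the members that were fitted (red, Hbb-b2 left out as identical to Hbb-bt) and for other tested globin, heme, membrane and regulator genes, with bars of 1 standard error. The members lie between -1.96 (Alas2) and -0.73 (Hbb-b1, Hbb-bs), and most other genes lie near 0 or have wide errors.

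Of the iron genes, 11 of 12 were tested, 8 higher and 3 lower in mean. Tfrc, the transferrin receptor, through which cells take up iron, had 17.8, 18.5 and 16.5 CPM in control and 28.8, 18.3 and 24.9 CPM in SS tumors (log2 fold change 0.45, standard error 0.19, edgeR's adjusted p = 0.771). Trf, the gene of transferrin, had 7.66, 12.1 and 15.7 CPM in control and 8.55, 5.12 and 5.74 CPM in SS tumors (log2 fold change -0.87, standard error 0.33, edgeR's adjusted p = 0.771). Both overlapped between groups, and they were the genes of this list at an unadjusted p under 0.05. Fth1, the ferritin heavy chain, was the most abundant, at 0.08 with a standard error of 0.21. Genes that clear hemoglobin and heme had 8 of 11 tested, 4 higher and 4 lower, and 0 at an unadjusted p under 0.05. Lrp1, the receptor that takes up heme bound to hemopexin, was the most abundant, at -0.13 with a standard error of 0.14. Hmox1, Cd163 and Hp are named for their function, after their values had been seen. Hmox1, which breaks heme down, was at 13.7, 10.3 and 19.3 CPM in control and 8.48, 16.6 and 28.1 CPM in SS tumors. Cd163, the macrophage receptor for hemoglobin bound to haptoglobin, was at 0.55 with a standard error of 0.79. On the lower side were Slc40a1, the iron exporter ferroportin with the smallest p of the list, at -0.70 (standard error 0.54), and Hp, the haptoglobin gene, at -0.99 (standard error 1.21). The lower mean of Hp rests on control tumor 1, at 68.4 CPM. Control tumors 2 and 3 had 5.06 and 1.93 CPM of Hp, and SS tumors 1, 2 and 3 had 8.12, 25.4 and 4.56 CPM.

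Markers of other components of blood and of vessels were set beside the globins. Of 12 platelet markers, 6 were in the table and 3 were tested, and their sum was between 5.55 and 7.50 CPM in control and 3.41 and 10.4 CPM in SS tumors. Ppbp, Gp5, Gp6 and Clec1b were not in the table used here. Of 14 neutrophil markers 8 were in the table, with sums between 8.89 and 25.7 CPM in control and 11.8 and 15.7 CPM in SS tumors, and S100a9 and Mpo did not exceed 0.395 and 0.79 CPM. Of 8 B cell markers 3 were in the table and 0 were tested. Their sums were 15.9, 1.28 and 0.164 CPM in controls and at most 0.145 CPM in SS tumors, where the sum in control tumor 1 was mainly Pax5. The 4 tested neutrophil genes were all lower in mean, with 0 at an unadjusted p under 0.05. Platelet and neutrophil sums overlapped between the groups, B cell sums in SS tumors could not be told from that of control tumor 3 at this depth, and the part of blood left in the tissue was not tested.

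Of 13 endothelial markers, 11 were in the table and 10 were tested, 8 higher and 2 lower, with a median log2 fold change of 0.40. Vwf, the von Willebrand factor, was higher in every SS tumor than in any control, at 18.5, 6.43 and 9.18 CPM in control and 22.5, 35.7 and 19.7 CPM in SS tumors (log2 fold change 1.20, standard error 0.41), as was Esam, an adhesion molecule of endothelial junctions (log2 fold change 0.58, standard error 0.23). Both missed the threshold after adjustment (edgeR's adjusted p = 0.771). Cdh5, the cadherin of vessel walls and the most abundant of the list, was at 0.12 with a standard error of 0.28. The sum of the list was 153, 132 and 97.2 CPM in control tumors 1, 2 and 3 and 135, 229 and 135 CPM in SS tumors 1, 2 and 3. Within each group the tumor with the most globin RNA, control tumor 1 and SS tumor 2, also had the highest endothelial sum. Control tumor 2 went the other way, with more endothelial but less globin RNA than control tumor 3 (2668 against 3002 CPM of globin RNA). Pecam1, also an endothelial marker, had 0 counts in 3 tumors and no more than 0.595 CPM in any. For muscle markers, SS tumor 2 was highest and SS tumor 1 lowest of the SS tumors as for globin, but control tumor 2, with the least globin RNA of the controls, had the most muscle RNA (5436, 10911 and 1106 CPM in control tumors 1, 2 and 3). Adipocyte markers summed to 142, 7.76 and 5.45 CPM in control and 65.0, 90.4 and 11.6 CPM in SS tumors, with Adipoq at no more than 0.595 CPM. Their sum was likewise highest in control tumor 1 and SS tumor 2, so this match is not particular to vessels. The part of vessels, muscle and fat in the globin levels was not tested.

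**Figure D5:**
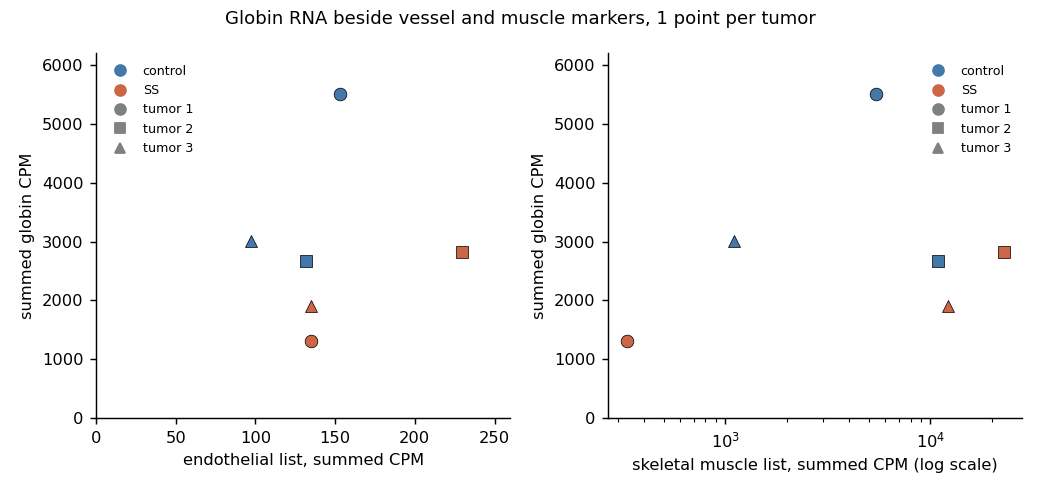
Summed globin CPM of each tumor against the summed CPM of the endothelial list (left) and of the skeletal muscle list (right, log scale), control blue and SS orange. Control tumor 1 has the most globin RNA at 153 CPM of endothelial markers, and SS tumor 2 the most of the SS tumors at 229 CPM.

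Outside the lists, the 8 genes whose level most closely followed globin RNA over the 6 tumors included Rfk, Mfge8, Mamld1, Fam20a, Thoc6, Cops4 and Copz2. Their Pearson correlations with the log2 of summed globin CPM ran from 0.964 to 0.992 over 6 tumors, and 77 of 10895 genes exceeded 0.9. Rfk, the riboflavin kinase, was at 8.69, 5.70 and 5.58 CPM in control and 3.33, 5.95 and 4.31 CPM in SS tumors. Cops4, a subunit of the COP9 signalosome, was at 53.0, 42.6 and 42.0 CPM in control and 29.1, 41.7 and 32.2 CPM in SS tumors. None of the 8 is a gene of the red cell lists, and Alas2 itself correlated at 0.877 and Slc4a1 at 0.326. These points share libraries, depth and the groups, and no more than 3 of the 8 stayed among the closest 8 with any tumor left out, so they are given as a description.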

How the data were processed

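RNA of 3 control and 3 SS tumors was read as 2 mates of 75 nt from stranded poly(A) libraries. The authors deposited estimated counts (expected counts) for 20648 RefSeq transcripts, without normalization, and each transcript kept has at least 10 counts over the 6 tumors. The submitters' processing notes name mm10, CASAVA 1.8.1, Bowtie2 2.2.5 and STAR 2.5.3a; the tool that split shared reads is not given in the sources used here. Transcripts were summed by symbol and rounded, after 21 symbols held as dates had been restored from accessions. Genes passing edgeR's filterByExpr were scaled by TMM and compared with edgeR 4.0.16 in R 4.3.3 (quasi-likelihood test, Benjamini-Hochberg adjustment over 10902 genes), and the standard error is the log2 fold change over the square root of F. A log2 CPM used a prior count of 2. The fit was tested on simulated data. Promoters came from RefSeq and transcripts from GENCODE M21, both on GRCm38. The members and gene lists were chosen with earlier results of these data known. Named were the members, the 8 genes most like the globins, tested genes of the globin, heme, membrane and regulator lists, and of each other list the 2 most abundant, the 2 with the smallest p and genes absent or at 0; S100a9, Mpo, Pecam1, Adipoq, Epcam, Esr1, Erbb2, Lfng, Hmox1, Cd163 and Hp were added as markers after their values were seen. A few genes that this rule would name are not reported here. Alternatives were other scalings, DESeq2 1.42.0, limma 3.58.1 on quantile-normalized values, other filters, totals without globins, the replicate number as a block and leaving out each tumor. The methods of the study use quantile normalization and a t statistic, and edgeR was used here because the values are counts.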

Additional observations from a re-analysis of the deposited data

How the results depend on the processing

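With 3 tumors a group, the spread between tumors limits the globins and Slc4a1, and few counts limit Alas2 and Slc4a1. DESeq2's Wald test gave 35 genes at an adjusted p under 0.05 where edgeR's test gave 0, and the cause was not tested; every other alternative gave 0. The count at an unadjusted p under 0.05 ran from 520 to 877 with a tumor left out and from 643 to 789 otherwise. With a tumor left out, the difference in mean log2 of summed globin CPM ran from -1.17 to -0.57 and the median log2 fold change of the members from -1.39 to -0.58. Under the other alternatives these values were -0.91 to -0.89 and -1.05 to -1.01, and none of the 7 fitted members changed direction under any of them or with a tumor left out; Slc4a1 was not fitted. Of the 8 genes most like the globins, 8 were kept with a prior count of 0.5 and from 0 to 3 with a tumor left out. Deviations of same-numbered tumors correlated at 0.116, 0.021 and 0.077, so the numbers do not pair them; with the replicate number as a block 643 genes had an unadjusted p under 0.05, 0 passed adjustment and the members' median was -1.02.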

Other observations

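Globin RNA was also set against the vessel markers, in a ratio formed after the values had been seen. Globin RNA itself overlapped between the groups only through SS tumor 2, at 2822 CPM against 2668 CPM in control tumor 2. SS tumor 2 also had the highest endothelial sum, at 229 CPM, so the lack of overlap in this ratio rests on that tumor. Of 10 tested vessel markers, 8 were higher in mean in SS tumors. Summed globin CPM per summed CPM of the endothelial list came to 36.1, 20.3 and 30.9 for controls 1, 2 and 3. SS tumors 1, 2 and 3 had 9.66, 12.3 and 14.1, so that every SS tumor was below every control. Without Vwf and Esam in the list, the ratio was 44.1, 23.1 and 37.2 in control and 12.8, 15.9 and 18.6 in SS tumors, with the same order.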
